A study of Homo sapiens with 12 samples.

Results

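The distal genes of the long arm of chromosome 17 were followed in BEAS-2B, a bronchial epithelial line immortalised from human cells. The set was 191 genes whose starts lie between positions 60043194 and 82051831 of chromosome 17 (hg38) and whose average over the kava and vehicle libraries reached 1 TPM (transcripts per 1000000), of 13866 genes that did. Of 527 genes that the siRNA table places in this range, 520 were also in the TPM table and 207 reached a mean of 1 TPM, and 16 of those were left out by name. The range was chosen by the kava and vehicle TPM themselves, as one whose genes stood higher with kava, so the kava values below are a description and carry no test. All cells had grown for 20 weeks with 0.25 µM K2Cr2O7, potassium dichromate, which supplies the lung carcinogen hexavalent chromium, Cr(VI). The 12 libraries of polyadenylated RNA formed 4 groups of 3. Kava cells received Cr(VI) with 25 µg/ml kava, an extract of Piper methysticum, and vehicle cells received Cr(VI) with 0.05% DMSO. SNRPA1 siRNA cells and control siRNA cells were Cr(VI) and vehicle cells taken 48 h after transfection with siRNA at 100 nM, either a pool that targets SNRPA1, which encodes a U2 snRNP protein of the spliceosome, or a control. No label says that the libraries of a group came from separate cultures, so the spread between them may be technical.

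Genes that are neighbours on a chromosome need not share a function, and this end of chromosome 17 holds genes of many pathways. They include cytoplasmic gamma actin, a histone H3.3 gene, the small modifier SUMO2, several mitochondrial ribosomal proteins and many signalling proteins. The stretch around PPM1D, APPBP2 and TBX2, near the proximal end of the range, is known from breast cancers, in which it is recurrently amplified.

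Promoter windows of genes at both extremes of the kava difference are shown so that they can be compared in sequence as well as in level. RefSeq (GRCh38.p14) gave a 300-base window, with 250 bases before and 50 after a start, for 128 of the 191 genes. Of the 10 genes highest and the 10 lowest with kava, the first 3 of each whose RefSeq start lay within 1000 bases of the 5′ end in the siRNA table were taken. The capitals mark the GC box GGGCGG or its complement CCGCCC, read on both strands with overlapping matches counted apart. Higher and lower give the sign of the mean difference, and for CEP95 the values overlapped between groups.
RHBDF2, higher with kava, chr17:76501374-76501673, minus strand: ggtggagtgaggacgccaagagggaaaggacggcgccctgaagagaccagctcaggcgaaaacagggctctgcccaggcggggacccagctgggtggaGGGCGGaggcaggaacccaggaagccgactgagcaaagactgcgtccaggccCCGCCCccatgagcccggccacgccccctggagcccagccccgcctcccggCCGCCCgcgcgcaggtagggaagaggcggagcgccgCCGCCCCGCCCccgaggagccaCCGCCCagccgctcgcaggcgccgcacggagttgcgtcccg
WBP2, higher with kava, chr17:75856387-75856686, minus strand: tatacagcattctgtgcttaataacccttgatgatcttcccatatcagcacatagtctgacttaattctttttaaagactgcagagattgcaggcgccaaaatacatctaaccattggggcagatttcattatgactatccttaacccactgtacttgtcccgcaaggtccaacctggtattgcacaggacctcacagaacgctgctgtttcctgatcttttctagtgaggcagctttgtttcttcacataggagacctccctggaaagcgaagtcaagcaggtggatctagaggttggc
VCF1, higher with kava, chr17:73232345-73232644, minus strand: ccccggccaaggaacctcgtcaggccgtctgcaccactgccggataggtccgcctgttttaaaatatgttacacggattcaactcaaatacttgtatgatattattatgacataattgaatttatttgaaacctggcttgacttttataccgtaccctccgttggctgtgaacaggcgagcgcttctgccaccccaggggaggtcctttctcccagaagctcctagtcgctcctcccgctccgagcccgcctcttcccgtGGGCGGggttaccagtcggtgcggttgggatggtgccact
APPBP2, lower with kava, chr17:60526193-60526492, minus strand: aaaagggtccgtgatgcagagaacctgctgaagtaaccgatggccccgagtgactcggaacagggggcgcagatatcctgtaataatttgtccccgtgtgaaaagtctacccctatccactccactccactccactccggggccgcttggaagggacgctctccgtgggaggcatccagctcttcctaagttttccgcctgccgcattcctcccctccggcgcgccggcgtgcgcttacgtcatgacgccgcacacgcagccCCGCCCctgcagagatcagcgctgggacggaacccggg
CEP95, lower with kava, chr17:64506727-64507026, plus strand: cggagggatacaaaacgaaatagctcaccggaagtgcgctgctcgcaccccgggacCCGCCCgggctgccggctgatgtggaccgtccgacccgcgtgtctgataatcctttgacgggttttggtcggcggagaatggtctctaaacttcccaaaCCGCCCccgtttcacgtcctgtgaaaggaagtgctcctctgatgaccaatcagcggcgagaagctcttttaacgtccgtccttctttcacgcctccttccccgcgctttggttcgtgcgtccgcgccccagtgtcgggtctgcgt
PPM1D, lower with kava, chr17:60599943-60600242, plus strand: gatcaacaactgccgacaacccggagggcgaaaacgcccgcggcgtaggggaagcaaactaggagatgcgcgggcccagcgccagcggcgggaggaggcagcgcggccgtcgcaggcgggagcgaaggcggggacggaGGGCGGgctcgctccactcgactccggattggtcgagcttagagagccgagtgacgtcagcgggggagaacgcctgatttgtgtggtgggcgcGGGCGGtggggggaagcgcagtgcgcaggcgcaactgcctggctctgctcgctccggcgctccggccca
RHBDF2 held 6 GC boxes, CEP95 and PPM1D held 2 each, VCF1 and APPBP2 held 1 each, and WBP2 held 0. The 3 genes higher with kava thus spanned 0 to 6 boxes, and the 3 lower ones 1 to 2. GNA13, lower in every kava library and not shown, also held 6, so few boxes were no mark of the lower genes. Of windows before RGS9, the gene from which the kava difference turns positive, 20 of 23 (87.0%) held a GC box. From RGS9 on, 81 of 105 (77.1%) did. Over the 128 windows, 78.9% held a GC box, against 45.0% of all 35116 RefSeq promoters. The 128 belong to genes that averaged 1 TPM or more, while the 35116 were not filtered on level. Here and below, differences between the 128 and all promoters are therefore not read as a trait of this range. Of the 128 windows, 107 had their start within 1000 bases of the 5′ end in the siRNA table. The median GC content was 68.3% in the 128 windows, against 58.7% in all promoters, and the median number of CpG dinucleotides was 29, against 14. Of the other motifs read on both strands, the TATA box (TATAAA) was in 6.25% of the windows and 11.5% of all promoters, and the CCAAT box (CCAAT) was in 39.8% and 34.6%. The E box (CACGTG) was in 9.38% of the windows and 7.26% of all promoters, and the AP-1 site (TGACTCA) was in 6.25% and 4.95%. A match is a run of letters and not a bound site.

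Over all genes, library pairs of the kava experiment correlated at 0.9898 to 0.9945 within a group and 0.9803 to 0.9831 between groups. Those of the knockdown correlated at 0.9597 to 0.9793 within a group and 0.9469 to 0.9717 between groups, ranges that overlap. The siRNA libraries held 55003534 to 65385258 counts. SNRPA1 was at 21.4, 21.0 and 23.7 CPM (counts per 1000000) with SNRPA1 siRNA and 67.6, 58.9 and 60.2 CPM with control siRNA, a log2 fold change of -1.50 ± 0.0980 (SE; adjusted p = 0.00495, edgeR quasi-likelihood test). Of 10 bronchial epithelial markers 6 reached a mean of 1 TPM, with KRT8 at 543, KRT18 at 411 and EPCAM at 2.41 TPM, while KRT5, TP63, CDH1 and GRHL2 stayed under 1 TPM. The list summed to 1310 to 1367 TPM with kava and 1245 to 1296 TPM with vehicle, but single markers differed in opposite directions. KRT19 averaged 0.705 TPM with kava and 23.5 TPM with vehicle, ELF3 29.2 and 49.1 TPM, and KRT7 406 and 192 TPM. The differentiated airway markers were all under 1 TPM, 0 of 6, with SCGB1A1 at 0 throughout. Of the fibroblast list 5 of 9 passed, among them VIM at 1853 and COL1A1 at 90.9 TPM, and the list summed to 2323 to 2547 TPM with kava and 2219 to 2317 TPM with vehicle, with COL1A2 at 8.54 TPM with kava and 0.101 TPM with vehicle. Of the blood list 2 of 7 passed (CD68 and CD14), with HBB at 0 and a summed level of 31.7 to 34.4 TPM with kava and 19.5 to 22.2 TPM with vehicle. Of the endothelial list 0 of 6 passed, and it summed to 0.399 to 0.479 TPM with kava and 1.39 to 1.59 TPM with vehicle. The part of these shifts in the kava values below was not tested.

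As a whole, the distal chromosome 17 genes stood higher in kava cells, but the first 38 of them did not. The genes took 1.64, 1.61 and 1.56% of all TPM in the kava libraries, against 1.22, 1.21 and 1.21% in the vehicle libraries. The kava libraries all lay above the vehicle libraries, with means of 1.61 ± 0.0419% and 1.22 ± 0.00929% (SD, n = 3 each), a ratio of 1.32. The median difference of mean log2(TPM + 1), kava minus vehicle, was 0.35 over the 191 genes, with a middle range of 0.06 to 0.49, against -0.01 over all 13866 genes. On this scale the change of low genes is understated. The difference was above 0 for 148 genes and below 0 for 43. For 123 of the 191 genes (64.4%) all kava values lay above all vehicle values, against 22.6% of all genes, and for 19 (9.95%) they all lay below, against 24.6%. The choice of the range fixes these shares, and nothing is read from them. In bulk RNA, a change in every cell and a change in the share of cells that express a gene cannot be told apart.

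The difference changed sign inside the range, at a gap between GNA13 and RGS9. GNA13, the G protein subunit alpha 13 (65009289 to 65056740), had 30.2, 31.3 and 30.3 TPM in kava libraries and 34.5, 33.4 and 34.6 TPM in vehicle libraries. RGS9, a regulator of G protein signalling (65100812 to 65227703), had 3.31, 2.49 and 3.19 TPM in kava libraries and 2.15, 1.26 and 1.95 TPM in vehicle libraries. GNA13 was thus lower in every kava library, with a difference of -0.15 ± 0.0227 (SE), and RGS9 higher in every kava library, at 0.53. This split was set after the values were seen and has no test. Before RGS9 the median of the 38 genes was -0.15, with 6 genes above 0 and 32 below, and the kava values lay all above the vehicle values for 2 genes and all below for 17. From RGS9 on, the median of 153 genes was 0.39, with 142 above 0 and 11 below. Here the kava values lay all above for 121 genes and all below for 2, CACNG4 and CBX2.

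**Figure D1:**
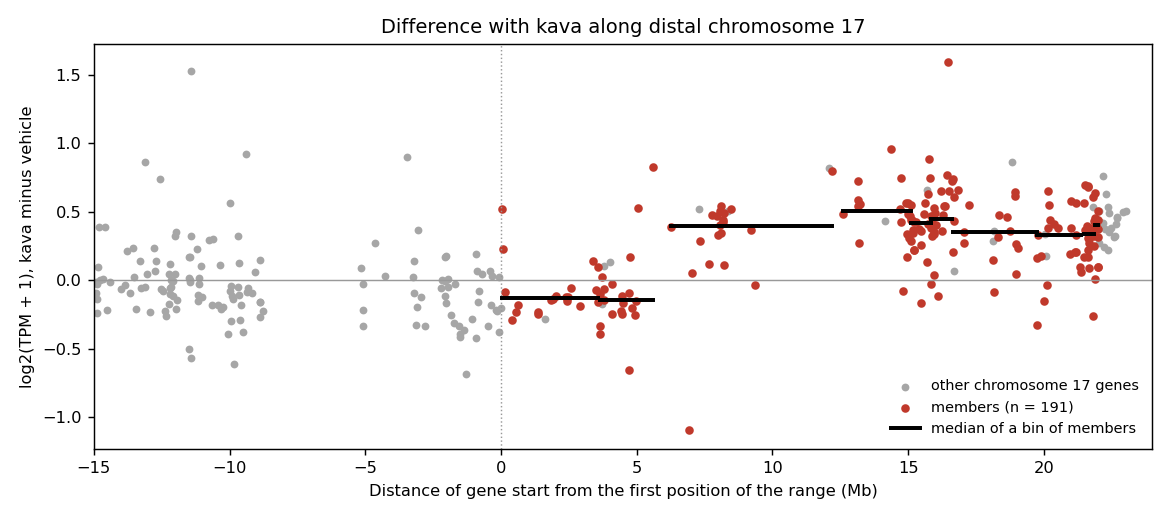
Difference of mean log2(TPM + 1), kava minus vehicle, of each chromosome 17 gene that averaged 1 TPM or more, against the distance of its start from the first position of the range, in Mb. Red points are the 191 genes of the set, grey points other chromosome 17 genes, and black bars the medians of consecutive bins of 20 genes, which run from -0.13 and -0.15 in the first bins to 0.40 in bin 3.

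Along the chromosome, in bins of 20 genes by start (the last bin held 11), the medians were -0.13 and -0.15 in the first and second bins. They were 0.40, 0.50, 0.42 and 0.44 in the next bins and then 0.35, 0.33, 0.34 and 0.40. From the third bin on, every median was above 0. The genes nearest before the range lay below 0 like its first genes, with a median of -0.14 over the nearest 40 and 20 of them lower in every kava library. The 21 genes past the range, up to the end of the chromosome, had a median of 0.41, with all 21 above 0 and 19 higher in every kava library. The 16 genes left out by name had a median of 0.35, with 14 above 0. Over the 613 genes of chromosome 17 before the range the median was -0.05, and over the other chromosomes it was -0.02. Between whole chromosomes medians ran from -0.28 for chromosome 14 to 0.21 for chromosome 5.

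At the first position of the range, RNFT1 (0.02), DHX40P1 (-0.38) and HEATR6 (-0.20) lie just outside. ENSG00000293515 (0.52), ENSG00000267248 (0.23) and USP32 (-0.08) lie just inside. At the last position DCXR (0.10), RFNG (0.32) and GPS1 (0.44) lie inside, and DUS1L (0.50), FASN (0.27) and CCDC57 (0.42) outside. KPNA2P3 and LRRC37A3, at means of 1.02 and 1.04 TPM, were just above the level required, and AXIN2 and BPTFP1, at 0.968 and 0.922 TPM, just below it.

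Before RGS9, 6 genes ran against their neighbours by standing above 0. They were ENSG00000293515 and ENSG00000267248, higher in every kava library, and ENSG00000291117, CYB561, MAP3K3 and CCDC47, whose values overlapped between groups. From RGS9 on, 11 genes stood below 0. CACNG4, a regulatory subunit of calcium channels and AMPA receptors, had 1.31, 1.27 and 1.03 TPM in kava libraries and 3.66, 4.19 and 3.30 TPM in vehicle libraries, and at -1.10 it was the lowest of the whole set. CBX2, a Polycomb chromobox protein, had 4.01, 3.74 and 3.08 TPM in kava libraries and 4.58, 4.30 and 5.46 TPM in vehicle libraries. The remaining 9 overlapped between groups, and named genes among them lay between -0.17 (LLGL2) and -0.03 (TRIM65). The genes first after the step were uneven: CEP112 was at 0.82, PRKCA at 0.39, HELZ at 0.05, PITPNC1 at 0.28, NOL11 at 0.12 and BPTF at 0.48.

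**Figure D2:**
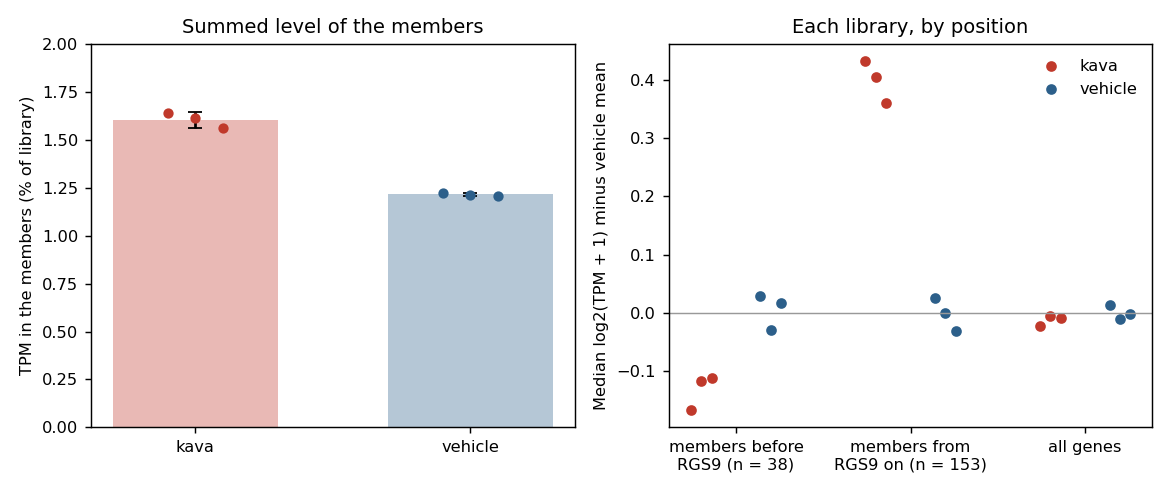
Left, share of each library's TPM in the 191 genes (%), with points for libraries and bars and error bars for mean and SD (n = 3). Right, median distance of log2(TPM + 1) from the vehicle mean in each library, for the 38 genes before RGS9, the 153 from RGS9 on and all genes; the kava libraries sit at 0.43, 0.40 and 0.36 from RGS9 on and at -0.17, -0.12 and -0.11 before it.

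Every kava library showed both sides of the step. The range and the split at RGS9 were set with these libraries in view, so the libraries are no test of the step. Measured from the vehicle mean, the median of the 153 genes from RGS9 on was 0.43, 0.40 and 0.36 in kava replicates 1 to 3. It was 0.02, 0.0003 and -0.03 in vehicle replicates 1 to 3. The median of the 38 genes before RGS9 was -0.17, -0.12 and -0.11 in the kava libraries and 0.03, -0.03 and 0.02 in the vehicle libraries.

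From RGS9 on, the differences were spread about as widely as those of all genes, around a higher median. The middle range of the 153 genes was 0.25 to 0.54, against -0.15 to 0.15 over all 13866 genes. In the whole set, 125 genes were at least 0.2 higher, 84 lay between 0.3 and 0.6, 22 lay within 0.1 of 0 and 15 were at least 0.2 lower. A single gene was 1 or more higher, CYGB, and a single gene 1 or more lower, CACNG4. From RGS9 on, the 121 genes that averaged 5 TPM or more had a median difference of 0.41 with an SD of 0.228 between genes, and a median ratio of mean TPM of 1.35 with a middle range of 1.24 to 1.48. Across the 153 genes the difference had a Spearman correlation of 0.269 with log2 mean TPM, and both hold the same TPM values. By biotype in the siRNA table, 158 protein-coding genes had a median of 0.36 and 29 lncRNA genes 0.34, while 4 others had -0.33.

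Among the genes highest with kava, CYGB stood apart. CYGB, cytoglobin, an oxygen-binding globin (76527356 to 76537709), had 15.8, 16.7 and 15.4 TPM in kava libraries and 4.42, 4.88 and 4.64 TPM in vehicle libraries, a difference of 1.59 ± 0.0458 (SE). GPRC5C, an orphan G protein-coupled receptor, had 10.5, 8.82 and 7.95 TPM with kava and 4.18, 4.18 and 4.15 TPM with vehicle, at 0.96. CEP112, a centrosomal protein, had 10.3, 11.4 and 10.4 TPM with kava and 6.11, 4.99 and 5.81 TPM with vehicle, at 0.82. The groups of libraries did not overlap for any of these genes. RHBDF2, iRhom2, a partner of the sheddase ADAM17, had 22.2, 21.9 and 22.2 TPM with kava and 14.1, 12.7 and 11.1 TPM with vehicle. JMJD6, a lysyl hydroxylase of the nucleus, had 72.2, 67.9 and 70.0 TPM with kava and 42.3, 43.6 and 38.7 TPM with vehicle. WBP2, a WW domain binding protein and transcriptional coactivator, had 99.1, 104 and 95.5 TPM with kava and 61.7, 58.7 and 56.4 TPM with vehicle. RHBDF2, JMJD6 and WBP2 were each higher in every kava library, at 0.77, 0.74 and 0.75. TMEM104 (0.75), VCF1, a cofactor of the ATPase VCP (0.72), MXRA7 (0.72) and NPLOC4, a further VCP cofactor (0.70), completed the 10 highest. UNC13D (0.88) and LINC00511 (0.80) are named here outside the naming rule, with their values known.

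**Figure D3:**
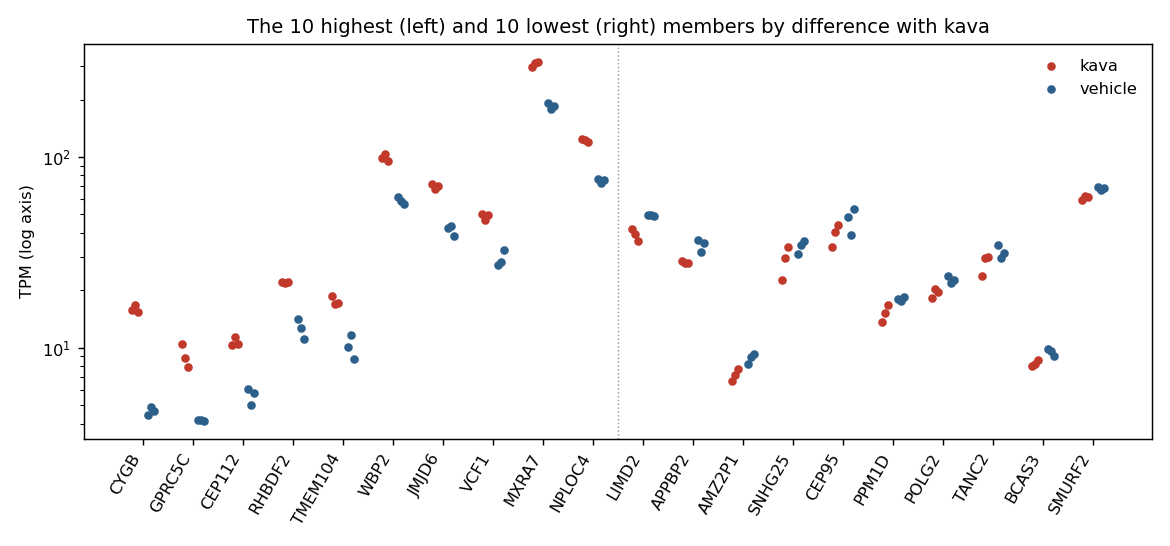
TPM on a log axis in each kava (red) and vehicle (blue) library for the 10 highest and 10 lowest genes by difference, among named genes that averaged 5 TPM or more. All 10 of the highest keep the kava points above the vehicle points, and among the lowest SNHG25, CEP95 and TANC2 overlap.

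The 10 lowest named genes all lay before RGS9, and their differences were smaller. LIMD2, a LIM domain protein, had 41.8, 39.4 and 36.1 TPM in kava libraries and 49.5, 49.4 and 49.3 TPM in vehicle libraries, a difference of -0.33 ± 0.0602 (SE). APPBP2, a substrate receptor of a CUL2 ubiquitin ligase, had 28.5, 27.9 and 27.7 TPM with kava and 36.7, 31.7 and 35.4 TPM with vehicle, at -0.29. PPM1D, the phosphatase WIP1 that p53 induces, had 13.6, 15.3 and 16.7 TPM with kava and 18.0, 17.6 and 18.4 TPM with vehicle, at -0.23. Each of these genes was lower in every kava library. POLG2, the accessory subunit of the mitochondrial DNA polymerase (-0.22), BCAS3 (-0.18), SMURF2, a ubiquitin ligase of the TGF-beta pathway (-0.17), and AMZ2P1 (-0.26) were likewise lower in every kava library. CEP95 (-0.25 ± 0.172, SE), SNHG25 (-0.25 ± 0.175, SE) and TANC2 (-0.19) overlapped between groups.

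The most abundant genes of the set followed their positions. ACTG1, cytoplasmic gamma actin, had 3978, 3761 and 3489 TPM in kava libraries and 2563, 2573 and 2445 TPM in vehicle libraries, a difference of 0.56. H3-3B, a histone H3.3 gene, had 1438, 1355 and 1224 TPM with kava and 1025, 1033 and 962 TPM with vehicle, at 0.41. SUMO2, a small ubiquitin-like modifier, had 705, 833 and 845 TPM with kava and 556, 549 and 654 TPM with vehicle, at 0.44. All kava libraries exceeded all vehicle libraries for these genes. KPNA2, an importin alpha that carries proteins into the nucleus, had 555, 559 and 553 TPM with kava and 445, 444 and 441 TPM with vehicle, at 0.33 ± 0.00575 (SE). DDX5, an RNA helicase whose gene lies before RGS9, had 684, 726 and 741 TPM with kava and 743, 747 and 838 TPM with vehicle, at -0.11. For KPNA2 the kava libraries were again all higher, and for DDX5 they were all lower. ACTG1, H3-3B, KPNA2, METTL2A, AMZ2P1 and LRRC37A3 have close copies elsewhere in the genome with which reads may have been shared, and TEN1, CDK3 and their readthrough gene overlap, so their levels are uncertain. In all, 131 of the 191 genes overlapped another gene of the siRNA table, with a median of 0.36, and the 60 that did not had a median of 0.33; whether reads were counted by strand is not given in the sources used here.

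Ordered by role, genes of every list stood on the side of 0 that their position gave, with 9 exceptions. The range and the split at RGS9 were set with these same values in view. This accord is therefore a description, and nothing about the roles is read from it. Among signalling proteins the median of 20 was 0.35. ARHGDIA, a regulator of small GTPases (0.60), PRKAR1A, a regulatory subunit of protein kinase A (0.52), and GRB2, a growth factor receptor adaptor (0.42), started from RGS9 on. TLK2, a kinase of chromatin assembly, lay before it at -0.16, as 4 of 5 signalling genes before RGS9 were below 0, the exception being MAP3K3 at 0.10. Among 15 genes of transcription and chromatin the median was 0.16, since 5 of them lay before RGS9 and all 5 were below 0. They included SMARCD2, a SWI/SNF subunit (-0.14), and MED13, a Mediator subunit (-0.13), whereas SAP30BP (0.56) and the small MAF protein MAFG (0.63) lay beyond. Of 11 RNA processing genes, the 3 before RGS9 were below 0 and the 8 beyond above 0, among them the export factor ALYREF (0.39) and the snoRNA host SNHG16 (0.65).

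For 13 mitochondrial proteins the median was 0.22. ATP5PD, a subunit of ATP synthase, had 503, 496 and 500.3 TPM with kava and 328, 332 and 352 TPM with vehicle, at 0.57, and the ribosomal proteins MRPS7 (0.42), MRPL38 (0.38) and MRPL12 (0.27) were also higher in every kava library. TACO1, a translational activator of cytochrome c oxidase, lay before RGS9 at -0.16, and PYCR1, an enzyme of proline synthesis, did not separate at 0.01. For 17 genes of ubiquitin, SUMO and protein turnover the median was 0.44, with GPS1, a subunit of the COP9 signalosome, at 0.44 and UNK at 0.63. For 12 genes of DNA repair, nuclear transport and the centrosome it was 0.37, and 11 were higher in every kava library, CEP95 being the other. CENPX (0.51), a protein of the Fanconi and centromere complexes, NUP85 (0.35), a nucleoporin, and RECQL5 (0.49), a DNA helicase, were among them. All 11 start from RGS9 on, where 79.1% of the 153 genes were higher in every kava library, against 22.6% of all genes. The range was chosen by these values, so the count is not read as a trait of the list.

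Of 14 membrane traffic genes, 13 were above 0 and 12 higher in every kava library, at a median of 0.38. These 12 all start from RGS9 on, where 79.1% of the 153 genes were higher in every kava library, so nothing is read from the count. HGS, an ESCRT component that sorts receptors on endosomes, had 136, 128 and 141 TPM with kava and 87.4, 83.1 and 81.2 TPM with vehicle, at 0.68. Of 9 genes of the cytoskeleton and adhesion the median was 0.36, with LGALS3BP, a secreted galectin-binding glycoprotein, at 0.64 and SEPTIN9 at 0.55. For 13 metabolic enzymes it was 0.41, with the nucleotidase CANT1 at 0.62 and the lysosomal sulphamidase SGSH at 0.65. The list of transporters and channels, one of whose 9 genes is the receptor GPRC5C, had a median of 0.55 and no gene below 0, but it does not hold the channel subunit CACNG4 (-1.10). With CACNG4, 9 of 10 were above 0, at a median of 0.51. The last 2 lists held no gene before RGS9, and the 58 genes in no list had a median of 0.31.

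**Figure D4:**
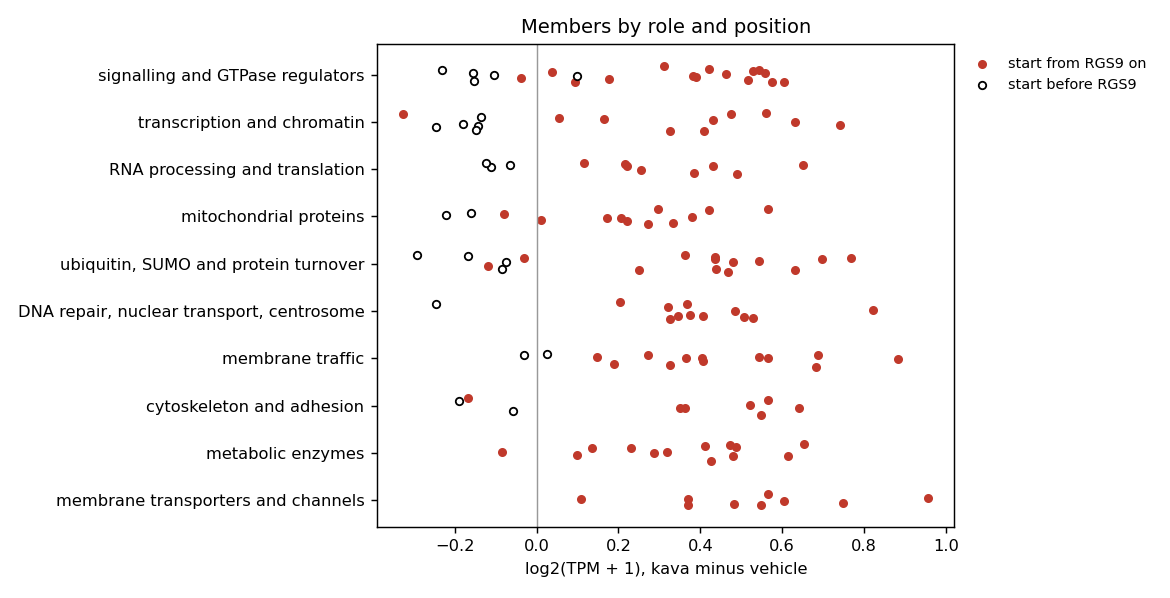
Difference of mean log2(TPM + 1), kava minus vehicle, for the members of 10 role lists. Filled points start from RGS9 on and open points before it; of the open points in the lists only MAP3K3 and CCDC47 lie above 0, and vertical jitter within a row carries no value.

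In the knockdown, whose libraries did not enter the choice of the genes, more of them were lower than higher. Of the 191 genes 176 passed a mean of 1 CPM and were tested with all 13772 such genes (edgeR quasi-likelihood test, Benjamini-Hochberg adjusted p under 0.05). Those called numbered 6 higher (3.41%), against 4.89% of all genes tested, and 24 lower (13.6%), against 7.29%. The median log2 fold change was -0.07, against -0.003 over all genes tested. SNRPA1 siRNA values lay all above control siRNA values for 27 of the 176 genes and all below for 57 of them. Of all 13772 genes, 2524 (18.3%) lay all above and 2804 (20.4%) all below. The 33 tested genes before RGS9 had a median of 0.02 with 0 called higher and 1 lower (3.03%, edgeR), the collagen receptor MRC2 at -0.32. At an unadjusted p under 0.05 they numbered 1 and 7, against 1844 and 2393 of all 13772 genes (edgeR). The 143 from RGS9 on had a median of -0.10, with 6 called higher (4.2%) and 23 lower (16.1%). Without any 1 of the SNRPA1 siRNA libraries, 0 genes of the set and 0 of all genes were called in either direction (edgeR). Without control siRNA replicate 3, 0 of the set were called, with 6 higher and 9 lower among all 13759 genes (edgeR). In these fits 9 to 12 genes of the set were higher and 36 to 46 lower at an unadjusted p under 0.05 (edgeR). These counts stand without one over all genes, and nothing is read from them. With all libraries 16 of the 176 genes were higher and 53 lower at that level, against 1844 and 2393 of all 13772 genes (edgeR). The 30 called genes kept their sign in each fit with a library left out. Their groups did not overlap with all libraries in, so this was nearly fixed in advance and nothing is read from it. With any library left out, the log2 fold change of RHBDF2 stayed at -0.86 to -0.75 and that of VCF1 at 0.40 to 0.45. Without control siRNA replicate 1, 32 of the set (18.3%) were called higher and 41 (23.4%) lower, against 16.2% and 16.9% of all genes, so the share of higher calls was not below that of all genes there. Without control siRNA replicate 2 the calls were 3 higher (1.72%) and 19 lower (10.9%), against 2.74% and 4.98%. DESeq2 on all libraries called 11 higher (6.25%) and 43 lower (24.4%), against 10.4% and 12.8% of all genes.

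Higher genes in the knockdown included JMJD6, which had 76.1, 77.7 and 78.7 CPM with SNRPA1 siRNA and 57.3, 40.6 and 46.0 CPM with control siRNA, a log2 fold change of 0.69 ± 0.129 (SE; edgeR adjusted p = 0.0222). VCF1 had 48.2, 48.8 and 49.7 CPM with SNRPA1 siRNA and 37.1, 37.2 and 34.3 CPM with control siRNA, at 0.43 (edgeR adjusted p = 0.0210). ACTG1 had 3913, 4173 and 4279 CPM with SNRPA1 siRNA and 3550, 3438 and 3452 CPM with control siRNA, at 0.24 (edgeR adjusted p = 0.0314). The other rises were those of SEC14L1 (0.34), PGS1, an enzyme of cardiolipin synthesis (0.33), and GRB2 (0.29). For each of the 6 genes the groups did not overlap.

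In the list of DNA repair, nuclear transport and the centrosome, 5 of 12 genes fell (41.7%, against 7.29% of all genes tested, edgeR). In it 0 rose, against 4.89% of all genes (edgeR). At an unadjusted p under 0.05 the list had 0 higher and 8 lower, against 1844 and 2393 of all 13772 genes (edgeR). The list was drawn up with earlier results of these data known, and like every other call of the set its 5 were lost without any 1 SNRPA1 siRNA library. FBF1, a protein of the transition fibres of cilia, had 9.29, 13.0 and 10.7 CPM with SNRPA1 siRNA and 21.8, 21.0 and 20.0 CPM with control siRNA, a log2 fold change of -0.93 ± 0.140 (SE; edgeR adjusted p = 0.0138). LRRC45, a centrosomal linker protein, had 25.6, 25.1 and 27.4 CPM with SNRPA1 siRNA and 53.6, 40.7 and 41.1 CPM with control siRNA, at -0.79 (edgeR adjusted p = 0.0160). RECQL5 had 16.6, 16.2 and 19.2 CPM with SNRPA1 siRNA and 33.2, 26.8 and 27.5 CPM with control siRNA, at -0.75 (edgeR adjusted p = 0.0172). The other members that fell were FAAP100, of the Fanconi core complex (-0.46), and NUP85 (-0.35), and the list median was -0.41.

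Of the ubiquitin list 4 of 17 fell (23.5%, against 7.29% of all genes tested), calls that were lost in the same fits. TRIM65, a ubiquitin ligase, had 19.3, 23.8 and 23.1 CPM with SNRPA1 siRNA and 41.2, 39.0 and 37.9 CPM with control siRNA, at -0.83 (edgeR adjusted p = 0.0105). RHBDF2 had 21.1, 20.9 and 21.7 CPM with SNRPA1 siRNA and 41.4, 36.0 and 35.7 CPM with control siRNA, at -0.83 ± 0.0969 (SE; edgeR adjusted p = 0.00969). The other members that fell were TRIM47 and RNF213. Of 19 signalling genes tested 1 rose (5.26%, against 4.89% of all genes) and 3 fell (15.8%, close to the 13.6% of the whole set). SPHK1, which makes sphingosine 1-phosphate, had 30.7, 35.8 and 38.1 CPM with SNRPA1 siRNA and 68.2, 52.6 and 53.9 CPM with control siRNA, at -0.74 (edgeR adjusted p = 0.0210). TBC1D16, a Rab GTPase activator, fell by 0.85 and RPTOR, the mTORC1 scaffold, fell by 0.50, both as log2 fold changes.

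TMEM104 had 26.4, 26.5 and 29.1 CPM with SNRPA1 siRNA and 48.6, 45.4 and 46.9 CPM with control siRNA, at -0.78 ± 0.0860 (SE; edgeR adjusted p = 0.00836). SLC25A10, the mitochondrial dicarboxylate carrier, had 39.2, 42.1 and 45.1 CPM with SNRPA1 siRNA and 93.9, 63.4 and 66.7 CPM with control siRNA, at -0.82. RFNG, a glycosyltransferase that modifies Notch, had 20.4, 23.5 and 23.1 CPM with SNRPA1 siRNA and 51.9, 30.2 and 36.5 CPM with control siRNA, also at -0.82. Control siRNA replicate 1 was the highest library for SLC25A10 and RFNG, but the groups did not overlap. The lncRNA MILIP, at 1.57, 1.56 and 1.97 CPM with SNRPA1 siRNA and 4.02, 3.51 and 3.68 CPM with control siRNA, had the lowest log2 fold change, -1.13 (edgeR adjusted p = 0.0177).

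Other genes that fell were SAP30BP, ENGASE, PCYT2, SLC38A10, HGS and SRP68, between -0.73 and -0.31. CYGB, the highest gene with kava, did not pass the test in the knockdown, at 10.1, 11.0 and 12.0 CPM with SNRPA1 siRNA and 13.2, 8.40 and 10.9 CPM with control siRNA (log2 fold change 0.03 ± 0.178, SE; edgeR adjusted p = 0.940). GPRC5C did not pass it either, at 0.59 ± 0.227 (SE; edgeR adjusted p = 0.131).

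The kava and knockdown values share no library, and are set side by side without a test. The 6 genes that rose in the knockdown all stood higher in every kava library, with differences of 0.27 to 0.74. Of the 24 that fell, 21 stood higher in every kava library and 0 lower, with differences of -0.06 to 0.77. The 146 genes that were not called had 94 higher and 19 lower in every kava library. The range was chosen by the kava values, and all called genes but MRC2 start from RGS9 on. There 79.1% of the 153 genes stood higher in every kava library, so no link between the comparisons is read from these counts. Across the 176 genes the kava differences and the knockdown fold changes had a Pearson correlation of -0.00686 and a Spearman correlation of 0.0127, as a description over genes that are not independent. JMJD6 and VCF1 were thus higher in both comparisons, while RHBDF2 and TMEM104 were higher with kava and fell with SNRPA1 siRNA. SNRPA1 itself had 124, 127 and 130 TPM with kava and 153, 152 and 147 TPM with vehicle, a difference of -0.24, lower in every kava library.

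**Figure D5:**
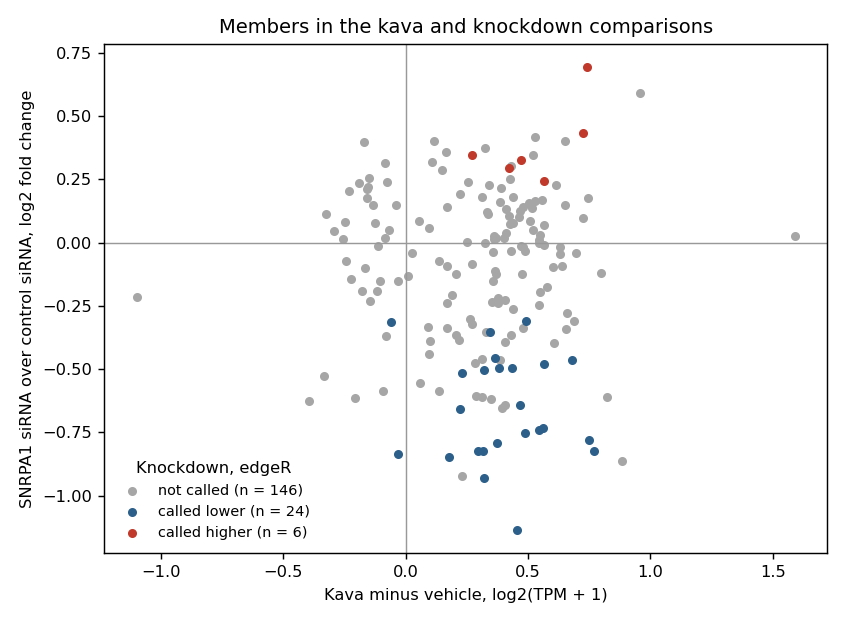
Each of the 176 genes measured in both experiments, with the difference of mean log2(TPM + 1), kava minus vehicle, on the horizontal axis and the log2 fold change, SNRPA1 siRNA over control siRNA, on the vertical axis. Red marks the 6 genes called higher and blue the 24 called lower in the knockdown (edgeR); both kinds lie mostly to the right of 0.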

How the data were processed

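Per the labels' protocols, RNA was extracted with Trizol and mRNA selected with oligo(dT) beads. Build hg38 and the tools HISAT2 2.0.4, StringTie 1.3.4d, cutadapt 1.9 and DESeq2 are listed in the submitters' processing notes, without a table for each; the authors' name for the TPM table mentions salmon. The deposited TPM of 78932 genes sum to 1000000 in each library, which leaves the depth unknown, and carry no counting error. The deposited siRNA table holds 35697 genes; its read counts were used and 6 other per-sample columns were not. The tables share 35185 gene identifiers, by which positions were joined. The SE of a difference on log2(TPM + 1), with a pseudocount of 1, comes from the 3 libraries of each group.

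Counts were fitted with edgeR 4.0.16 (R 4.3.3, TMM) over genes that averaged 1 CPM or more, two-sided, with adjustment over all of them, and the fit was tested on simulated data. The SE of a fold change is its size over the square root of F. A change in CPM per gene is not a level per length, so CPM were not compared between genes. Alternatives were other pseudocounts, filters and scalings, DESeq2 1.42.0, a replicate block and each library left out. Members and lists were chosen with earlier results of these data known. Named genes are the 10 highest and 10 lowest kava differences at an average of 5 TPM or more, the 5 most abundant genes, those at the thresholds, the 10 highest and lowest called in the knockdown at an average of 5 CPM or more, and up to 4 abundant genes per role list. Other genes, and the promoters taken by the distance of their start, were picked with the values in view. Some items are not reported here.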

Additional observations from a re-analysis of the deposited data

How the results depend on the processing

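With kava, the median difference of the 191 genes (0.35) was 0.38 with a pseudocount of 0.1 and 0.25 with one of 5, and 0.0057 over 504 genes with no filter on the mean, most of them below a mean of 1 TPM. Leaving out single libraries gave medians of 0.326 to 0.349 and TPM share ratios of 1.31 to 1.34. The ratio was 1.28 without the 50 most abundant genes. Of the 60 genes that overlap no other, 39 (65%) were higher and 4 (6.67%) lower in every kava library, against 22.6% and 24.6% of all genes. This setting was chosen after seeing the data. In the knockdown, calls numbered 11 higher (6.25%) and 43 lower (24.4%) with DESeq2, against 10.4% and 12.8% of all genes. With no filter, where more genes were tested, they numbered 2 higher (1.05%) and 13 lower (6.81%). Of all genes 0.839% and 1.34% were called there (edgeR), so the share of higher calls was not below that of all genes. Leaving out single libraries gave 0 to 32 higher and 0 to 41 lower, with SNRPA1 at -1.56 to -1.44 and an adjusted p of 0.0501 to 0.0558 (edgeR) without each SNRPA1 siRNA library. Same-numbered libraries did not deviate together (correlations of -0.303, 0.0702 and -0.110), and 1 of 6 correlated best with its own number. With the number as a replicate block, 0 genes of the set and 0 of all genes were called in either direction (edgeR). At an unadjusted p under 0.05 the set had 9 higher and 37 lower (edgeR), without a count over all genes, so nothing is read from these. SNRPA1 was at -1.50 with this block (edgeR adjusted p = 0.118). All 30 called genes kept their sign under each knockdown setting, which was nearly fixed in advance because their groups did not overlap. TPM carry no depth, so low kava values have no counting error.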
